A study of Mus musculus with 4 samples.

Results

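The cells described here are wound macrophages that carry transcripts of genes known from osteoclasts, the cells that resorb bone. They were chosen by counts of unique molecular identifiers (UMIs, 1 per captured transcript). A chosen cell held at least 1 UMI of at least 3 of the 7 genes *Acp5*, *Gpnmb*, *Mmp19*, *Ocstamp*, *Met*, *Ednrb* and *Pdpn*. It also held *Cd68* or *Csf1r*, which mark macrophages, and no *Cd3g*, a T cell receptor component. The rule found 544 cells among 6443 kept cells, with 27 in the library titled Control 1, 271 in Control 2, 134 in hucMSC-Exo 1 and 112 in hucMSC-Exo 2. Because few of them carried the resorption enzymes *Ctsk* and *Mmp9* or the fusion gene *Dcstamp*, they are called 7-gene macrophages.

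The study wounded C57/BL6j mice of 6 weeks with a full-thickness skin punch of 8 mm. Exosomes from mesenchymal stem cells of human umbilical cord (hucMSC-Exosomes, 100 µg per injection) or phosphate-buffered saline as control were injected under the skin at 4 sites every 48 h. Periwound skin was taken on day 7 and run as droplet single-cell RNA sequencing, with 2 libraries per group and 1 library per mouse. In the labels, the tissue entries refer to gut segments, whereas the cell type entries and the protocol refer to skin. Both groups were wounded and injected, so no unwounded skin is compared here. Libraries were assigned to groups by their titles. The matrix names carry letters that would pair the libraries differently, and each direction between groups depends on the titles being right. Where 4 values stand in a row without names, they are those of the controls (1, then 2) followed by those of the hucMSC-Exo libraries (1, then 2).

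Osteoclasts arise when cells of the monocyte lineage receive macrophage colony-stimulating factor through *Csf1r* and RANK ligand through *Tnfrsf11a*. The transcription factor *Nfatc1* then switches on the resorption genes, among them *Acp5*, which encodes tartrate-resistant acid phosphatase, *Ctsk*, the collagen-degrading cathepsin K, and *Mmp9*. Fusion into large cells needs *Dcstamp* and *Ocstamp*, and a proton pump, the V-ATPase, acidifies the space below the cell. Several of these genes are also used by lysosome-rich macrophages that clear debris. *Gpnmb* is a lysosomal glycoprotein, *Mmp19* a matrix metalloproteinase, *Met* the receptor for hepatocyte growth factor, *Ednrb* an endothelin receptor and *Pdpn* the mucin podoplanin. *Spic* is the transcription factor of red pulp macrophages, which recycle heme, and *Hmox1* is heme oxygenase 1, which degrades it.

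The rule genes are spread over the mouse genome (build GRCm38.p6), and only *Gpnmb* and *Met* share a chromosome. *Acp5* lies on chromosome 9 from 22126727 to 22135746, *Gpnmb* on chromosome 6 from 49036518 to 49058182 and *Met* on chromosome 6 from 17463349 to 17573980. *Mmp19* lies on chromosome 10 from 128790910 to 128800827, and *Ocstamp* spans 165395450 to 165400394 of chromosome 2, *Ednrb* 103814615 to 103844508 of chromosome 14 and *Pdpn* 143267409 to 143299564 of chromosome 4. Of the genes outside the rule, *Spic* lies on chromosome 10 from 88675269 to 88683023, *Hmox1* lies on chromosome 8 from 75093618 to 75100593 and *Ctsk* on chromosome 3 from 95499210 to 95509387.

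The 4 libraries held 6657095 to 16950639 UMIs. The 7-gene macrophages had a median of 9881, 9419, 7474.5 and 7953 UMIs by library, against 3287 to 3826 in cells without *Cd68* and *Csf1r* or with *Cd3g*, called ungated below. Their summed UMIs per library were 246171, 2472606, 1073790 and 862589, so the values of Control 1 rest on the fewest UMIs by far. The profile of Control 1 also correlated least with the others, and the part of its low UMI number in this was not tested. Over genes, its summed log expression correlated with the other libraries at r = 0.839 to 0.863, and the other 3 libraries correlated with each other at 0.935 to 0.971, as a description without a test. Between libraries, 6 barcodes were shared, and 1 of these belonged to a 7-gene macrophage. The doublet caller Scrublet marked 1 of the 544 cells.

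The share of 7-gene macrophages varied more between mice of 1 group than between the groups. They made up 2.84% of the kept cells in Control 1 (95% exact Clopper-Pearson interval 1.88% to 4.10%) and 13.1% in Control 2 (11.6% to 14.6%). Their share was 9.46% in hucMSC-Exo 1 (7.99% to 11.1%) and 5.60% in hucMSC-Exo 2 (4.63% to 6.70%). Both libraries of the hucMSC-Exosomes group lay between the 2 control libraries. The controls averaged 7.95% ± 7.23 (SD, n = 2) and the hucMSC-Exo libraries 7.53% ± 2.73 (SD, n = 2), and the exact two-sided permutation test of the 4 shares gave p = 1. With 2 libraries against 2 there are 3 splits, and the smallest p is 0.333. The intervals cover counting error only. Each library used here held far fewer cells than the study reports per mouse, and which cells were left out is not known. The shares therefore describe the cells available here, not all cells captured from the wound skin.

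Among macrophage-gated cells, meaning those with *Cd68* or *Csf1r* and no *Cd3g*, 10.8%, 34.0%, 34.1% and 16.8% were 7-gene macrophages by library. Here Control 2 and hucMSC-Exo 1 had nearly the same share. The controls averaged 22.4% ± 16.4 (SD, n = 2) and the hucMSC-Exo libraries 25.4% ± 12.3 (SD, n = 2), higher by 2.99 percentage points (p = 0.667 by the exact permutation test). The sign of this difference turned with the limit on genes per cell: without the upper limit of 3000 genes it was -1.75 percentage points. Leaving out 1 library at a time moved it from -8.61 (without Control 1) to 14.6 (without Control 2), and that of the share of kept cells from -5.54 to 4.69 likewise.

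**Figure D1:**
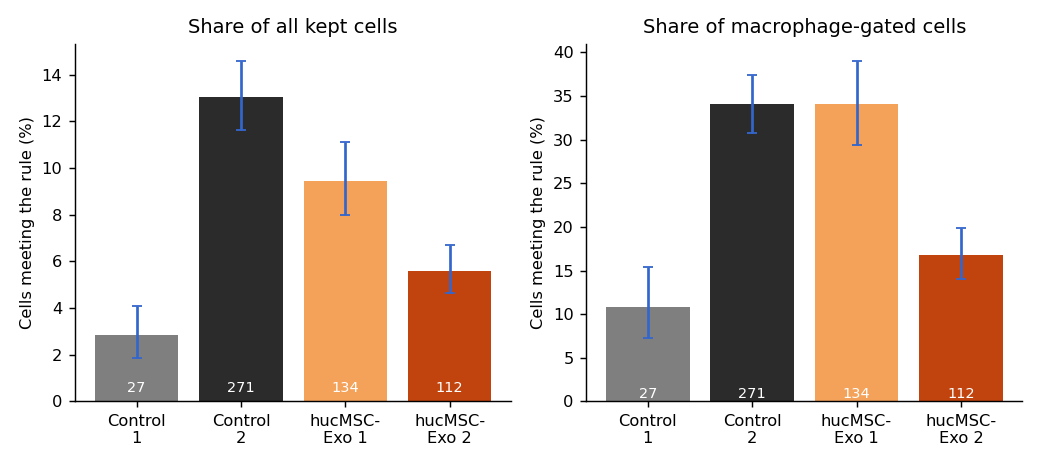
Share of 7-gene macrophages in each library, in percent of all kept cells (left) and of macrophage-gated cells (right). Bars are library values, error bars are 95% exact Clopper-Pearson intervals, and white figures are cell counts. The control bars span 2.84% to 13.1% of kept cells and enclose both hucMSC-Exo bars.

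The 7 genes contributed unequally to the choice. *Mmp19* was found in 88.2% of the 544 cells, *Pdpn* in 69.1%, *Gpnmb* in 57.7% and *Acp5* in 49.6%. *Met* was found in 39.5%, *Ednrb* in 38.2% and the fusion gene *Ocstamp* in 28.9%. The most common combination was *Gpnmb* with *Mmp19* and *Pdpn*, in 62 cells, and the next was the same 3 genes with *Acp5*, in 27. In ungated cells, which are shallower (median 3540 UMIs against 8506.5), the same genes were found in 0.254% (*Ocstamp*) to 6.43% (*Acp5*). These genes chose the cells, and their detection is given as a description.

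Of the 2106 gated cells, 727 held none of the 7 genes, 459 held 1, 376 held 2, 285 held 3, 156 held 4, 78 held 5, 24 held 6 and 1 held 7. Most 7-gene macrophages therefore sat at the edge of the rule, and 376 gated cells sat just outside it. There was no gap in this distribution at the cut. Exactly 3 genes were held by 23 of the 27 cells of Control 1, and by 127 of 271 in Control 2, 63 of 134 in hucMSC-Exo 1 and 72 of 112 in hucMSC-Exo 2.

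*Mmp19* was at 106, 1437, 1078 and 1272 CPM, its UMIs per 1000000 UMIs of the 7-gene macrophages of a library. *Gpnmb* was at 479, 412, 266 and 263 CPM and *Pdpn* at 341, 398, 473 and 350.1. The few cells of Control 1 thus met the rule with little *Mmp19*, which was found in 48.1% of them against 87.3% to 91.5% in the other libraries. *Acp5* was at 118, 206, 491 and 114 CPM, and *Ednrb* at 40.6, 104.3, 139 and 127. In hucMSC-Exo 1, 3 cells rich in *Ctsk*, described below, held 204, 34 and 62 of the 527 *Acp5* UMIs. C1q-high macrophages, defined below, held *Acp5* at 62.1, 48.5, 63.0 and 105 CPM, so in hucMSC-Exo 2 the 2 levels were close.

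*Hmox1* and *Spic* were not part of the rule. *Hmox1* was found in 89.7% of the 7-gene macrophages and in 10.3% of ungated cells, and its level was 418 CPM in Control 1 against 3179, 4839 and 3168 in the other libraries. *Spic* was found in 31.2% against 0.346%, at 8.12, 138, 190.0 and 110.1 CPM. Control 1 was the lowest library for both genes, and its *Spic* level rests on 2 UMIs. The other 3 libraries lay close together for both genes.

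**Figure D2:**
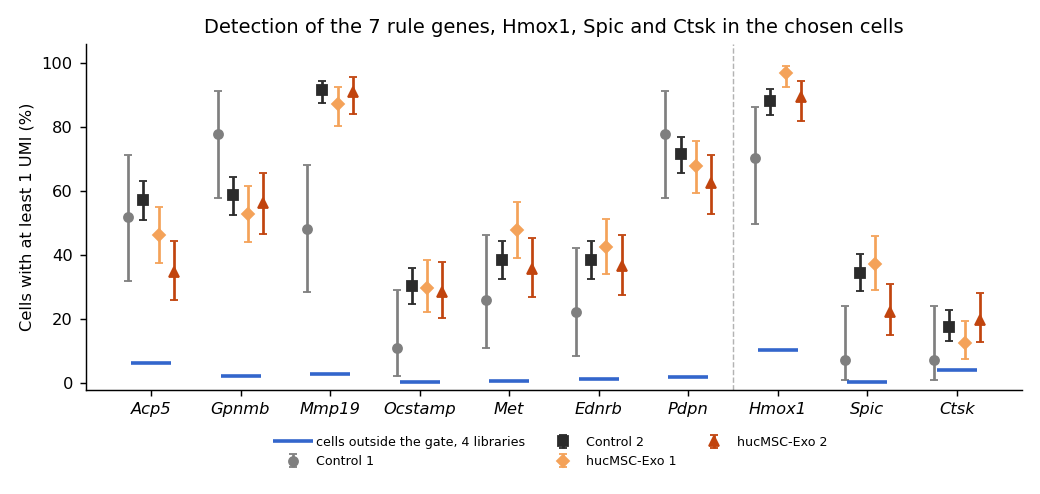
Percentage of 7-gene macrophages with at least 1 UMI of each gene (vertical axis) in each library, with 95% exact Clopper-Pearson intervals. The 7 genes left of the dashed line chose the cells, and blue lines give the percentage in ungated cells of all libraries, which are shallower. *Mmp19* reached 87.3% to 91.5% in 3 libraries and *Hmox1* 88.2% to 97.0%, both lower in Control 1, and *Ctsk* stayed at or below 19.6%.

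The label of these cells was then held against the genes that define an osteoclast. *Ctsk* was found in 16.4% of them and in 4.27% of ungated cells, *Atp6v0d2*, a V-ATPase subunit used in fusion, in 9.56%, *Mmp9* in 8.27% and *Dcstamp* in 7.17%. *Mmp9* was found in 8.99% of ungated cells, which hold other cell types, and by library in 0% to 8.53% of the other macrophages rich in the complement genes *C1qa*, *C1qb* and *C1qc*. *Oscar*, an osteoclast receptor, and *Siglec15*, a fusion receptor, had 0 UMIs in all 4 libraries, where 3 UMIs would give 1.21 to 12.2 CPM. The RANK receptor *Tnfrsf11a* was more common, in 33.3%, 36.2%, 38.8% and 22.3% of the cells by library, against 0.825% to 1.96% of ungated cells, and *Nfatc1* was found in 10.7% to 18.5% against 10.3% to 16.6%. *Car2*, the carbonic anhydrase of osteoclasts, held 8.12, 0.40, 4.66 and 0 CPM. The macrophage genes were present throughout: *Csf1r* was found in 88.9% to 93.3% of the cells by library, *Cd68* in 87.5% to 96.3%, *Adgre1* (F4/80) in 55.2% to 70.5% and the mannose receptor *Mrc1* in 56.7% to 73.4%. *Cd68* and *Csf1r* were in the rule.

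Most *Ctsk* UMIs of these cells came from 6 cells, which held 506 against 132 in the other 538. *Ctsk* was at 16.2, 80.9, 367 and 46.4 CPM by library. In hucMSC-Exo 1, 3 cells with 242, 80 and 50 UMIs held 94.4% of it, and in Control 2, 3 cells with 62, 37 and 35 UMIs held 67.0%. Without these 6 cells the levels were 16.2, 27.0, 21.3 and 46.4 CPM, and hucMSC-Exo 1 no longer stood above the others. A cut of 20 *Ctsk* UMIs, chosen after the values were seen, separates these *Ctsk*-high cells from the rest, whose highest value was 11 UMIs.

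Most *Ctsk*-high cells had been removed by the limit of 3000 genes per cell, which the study used and the rule repeats. Without that limit the rule held for 788 cells (60, 423, 178 and 127 by library). Of these, 107 were *Ctsk*-high (7, 63, 31 and 6 cells), and 101 of the 107 (94.4%) had over 3000 genes. Their median was 26933 UMIs and 4558 genes, with 22 to 740 *Ctsk* UMIs per cell. Intermediate levels were rare: 535 of the 788 had none, and 21 had 5 to 19 UMIs. Scrublet marked 0 of the 107 as doublets.

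The *Ctsk*-high cells over 3000 genes carried far more resorption gene transcripts than the other 7-gene macrophages. Summed over the 101 cells, *Ctsk* was at 7014 CPM, against 28.8 in the other 538 kept cells, and *Acp5* at 5057 against 182. *Mmp9* was at 2383 against 24.6, *Atp6v0d2* at 756 against 29.9, *Nfatc1* at 844 against 41.2 and *Ckb*, the brain creatine kinase of osteoclasts, at 769 against 54.7. *Dcstamp* was at 123 against 17.4. *Oscar* was found in 20 of the 101 cells and *Siglec15* in 3.

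The same cells were low in the genes by which most 7-gene macrophages were chosen. *Mmp19* was at 71.2 CPM against 1269.5 in the other kept cells, *Gpnmb* at 61.1 against 359 and *Ednrb* at 2.78 against 115. *Hmox1* was at 283 against 3459, *Spic* at 8.68 against 140.2, the complement gene *C1qa* at 33.7 against 1250.1 and *Cd74*, the invariant chain of MHC class II, at 224 against 6411. *Csf1r* differed little, at 534 against 443 CPM. The 7-gene rule thus took in 2 groups of cells that differed in which of its genes they carried, and under the limit on genes the *Ctsk*-high group made up 1.10% of the chosen cells. These cells were split by *Ctsk* after its values were seen, so the differences are a description, with no test.

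By library, the *Ctsk*-high cells over 3000 genes held *Ctsk* at 8152, 7280, 6379 and 4753 CPM and *Acp5* at 7067, 5159, 4519.8 and 2471. *Mmp9* was at 2869.5, 2353, 2626 and 237 CPM. The 6 cells of hucMSC-Exo 2 were lowest for all 3 genes, and they also held *C1qa* at 537 CPM against 0 to 14.1 in the other libraries.

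**Figure D3:**
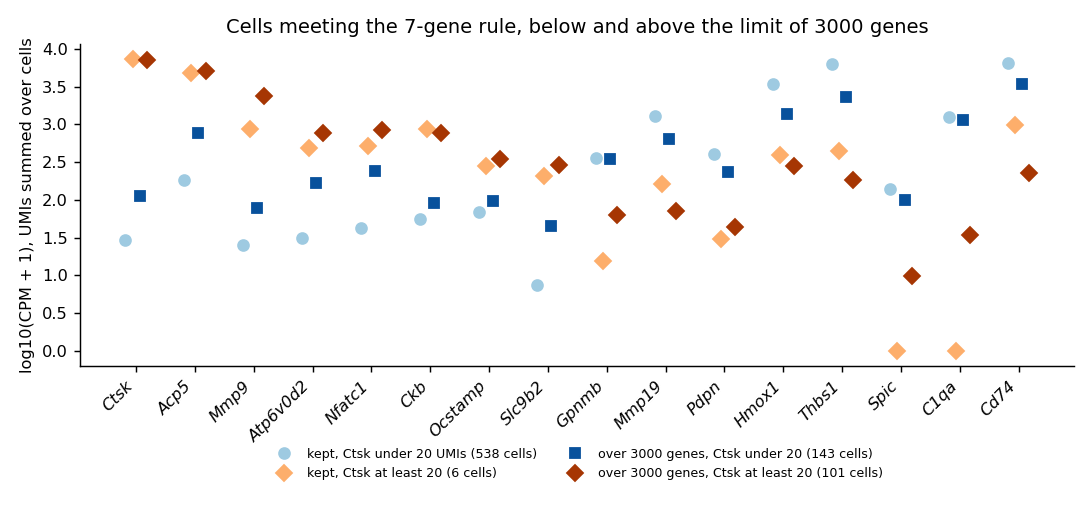
Level of 16 genes, as log10(CPM + 1) of UMIs summed over all libraries, in cells meeting the 7-gene rule. Colours and shapes split the cells by the limit of 3000 genes and by 20 *Ctsk* UMIs, and no error is drawn because cells are not replicates. *Ctsk*-high cells (orange and red diamonds) lay highest for the resorption genes on the left and lowest for *Gpnmb*, *Mmp19*, *Pdpn*, *Hmox1*, *Thbs1*, *Spic*, *C1qa* and *Cd74*, on either side of the limit.

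To place the 544 cells among the macrophages of these wounds, their summed UMIs were compared with those of 2 other gated populations. C1q-high macrophages (410 cells) held at least 2 UMIs of each of *C1qa*, *C1qb* and *C1qc* and did not meet the 7-gene rule. Ly6c2 cells (326 cells) held *Ly6c2* with *Chil3* or *Plac8*, as blood monocytes do, and did not meet it either. The classes were not sharply apart. Of the 7-gene macrophages, 283 (52.0%) also met the C1q criterion and 112 (20.6%) the Ly6c2 criterion, and among the Ly6c2 cells 27 (8.28%) held *Siglech*, a gene of plasmacytoid dendritic cells. Every class was cut from the same counts, so genes that accompany the 16 class-defining genes, which were left out of the test, are not independent of the choice.

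Of 6981 genes tested with edgeR's quasi-likelihood test, with the library as a block, 483 (6.92%) were higher and 543 (7.78%) lower in 7-gene than in C1q-high macrophages at an adjusted p under 0.05. Against Ly6c2 cells, 576 (8.25%) were higher and 574 (8.22%) lower. These shares of all genes are the background for each list below, and the median log2 fold change over all genes was -0.02 and -0.01. In both comparisons 121 genes (1.73%) were higher and 98 (1.4%) lower. Both comparisons use the 7-gene macrophages, so genes that pass both are not independent evidence. Leaving out 1 library moved the number higher than in C1q-high macrophages from 222 (without hucMSC-Exo 2) to 557 (without Control 1), and Control 2, hucMSC-Exo 1 and hucMSC-Exo 2 each lowered it by over 1.5 times when left out.

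The genes higher than in both other populations and in all 4 libraries numbered 97 (1.39%), and the 15 with the largest change included secreted and surface proteins of wound repair. *Cxcl1*, a chemokine that attracts neutrophils, was at 1235, 367, 687 and 167 CPM in the 7-gene macrophages. C1q-high macrophages held 103, 82.3, 224 and 35.5 CPM and Ly6c2 cells 113, 57.7, 9.74 and 17.2. It was higher in every library, by 2.40 on the log2 scale against C1q-high macrophages (edgeR adjusted p = 0.000117) and by 3.33 against Ly6c2 cells (4.54e-06).

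*Spp1*, osteopontin, which osteoclasts and wound macrophages both secrete, was at 662, 1427, 1188 and 1425 CPM. It was higher than in C1q-high macrophages by 1.59 (edgeR adjusted p = 0.00199) and than in Ly6c2 cells by 2.60 (3.17e-05) on the log2 scale. The endothelial protein C receptor *Procr* was at 134, 163, 192 and 184 CPM, with log2 fold changes of 2.47 and 1.42. The proteoglycan syndecan 1 (*Sdc1*) was at 77.2, 256, 267 and 206 CPM, with log2 fold changes of 1.67 and 1.69. *Spp1*, *Procr* and *Sdc1* were even among Control 2 and both hucMSC-Exo libraries. Without hucMSC-Exo 2 the call of *Procr* against Ly6c2 cells was lost (log2 fold change 1.14, edgeR adjusted p = 0.0574).

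*Arg1*, the arginase of alternatively activated macrophages, was higher than in both populations by 1.62 and 1.63 on the log2 scale, but its level was uneven, at 77.2, 385, 122 and 656 CPM. It was found in 167 of the 544 cells. Without hucMSC-Exo 2, the library with the highest level, neither call was made (1.61 and 1.57, edgeR adjusted p = 0.0509 and 0.0586). *Mmp9* passed as well, with log2 fold changes of 1.78 and 2.23 on 2 UMIs in Control 1, and both of its calls were lost without the 6 *Ctsk*-high cells (1.18 and 1.67) and without hucMSC-Exo 1 (1.02 and 1.64). The others of the 15 included *Plpp3*, *Cav1*, *Pde2a*, *Lpar1*, *Ptgfrn*, *Myo10*, *Ppfibp1* and *Ampd3*, at most 65.2 CPM in any library, with log2 fold changes of 1.42 to 2.29 against C1q-high macrophages. Of these, *Ampd3*, *Lpar1*, *Myo10* and *Ptgfrn* lost a call without Control 2, hucMSC-Exo 1 or hucMSC-Exo 2, where they had 1.15 to 1.78.

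Lower than in both populations and in all 4 libraries were 85 genes (1.22%). The 10 with the largest change included *Clec10a*, a lectin of alternatively activated macrophages and dendritic cells, with log2 fold changes of -2.93 and -2.94 and levels of 4.06 to 17.8 CPM. The interferon-induced genes *Ifit3* and *Ifi47* had -2.65 and -2.27 against C1q-high macrophages, and both calls were lost without Control 2 (edgeR adjusted p = 0.112 and 0.0517). The call of *Ifit3* against Ly6c2 cells was lost without Control 2 or hucMSC-Exo 2 (-2.65 and -1.79). The immunoglobulin gene *Ighm* had -2.35 and -2.18, and its call against Ly6c2 cells was lost without the *Siglech*-positive ones. The others were *Tmem229b*, *9930111J21Rik2*, *Themis2*, *Sirpb1a*, *Ly6a* and *Tifab*, of which *Themis2* and *Sirpb1a* lost a call without Control 2, hucMSC-Exo 1 or hucMSC-Exo 2 (-2.33 to -1.60).

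Among 9 tested genes of the osteoclast effector list, 5 were higher and 0 lower against each population, with median log2 fold changes of 0.76 and 1.34. They were *Ctsk* (1.86 and 2.72), *Mmp9*, the membrane-bound metalloproteinase *Mmp14* (0.80 and 1.51), the lysosomal chloride channel *Clcn7* (0.76 and 1.34) and *Itgav*, the integrin alpha chain of the osteoclast adhesion receptor (0.99 and 1.94). *Itgav* was at 154, 271, 230.0 and 196 CPM in 7-gene macrophages and at 77.6, 131, 138 and 92.9 in C1q-high macrophages, without overlap. Its partner *Itgb3* had -0.35 and -0.17 and did not pass (edgeR adjusted p = 0.747 and 0.892). Without the 6 *Ctsk*-high cells *Ctsk* had 0.19 and 1.09 and lost both calls, like *Mmp9*, and without Control 2 it lost the first (2.14, edgeR adjusted p = 0.0622).

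The receptors and transcription factors of osteoclasts did not follow. Of 18 tested, 1 was higher and 2 were lower than in C1q-high macrophages, and 3 were higher and 3 lower than in Ly6c2 cells. *Jdp2*, a partner of AP-1 factors in osteoclast formation, rose by 1.21 against C1q-high macrophages (edgeR adjusted p = 0.00217), and the AP-1 subunit *Fos* fell by 1.16. *Tnfrsf11a*, the RANK receptor, had 0.45 against C1q-high macrophages (adjusted p = 0.174) and was higher than in Ly6c2 cells by 1.63. *Nfatc1* had 0.65 (adjusted p = 0.234) and 1.39 (0.0234), and the latter call was lost without Control 2, hucMSC-Exo 1 or hucMSC-Exo 2 (1.20, 1.18 and 1.47).

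Of 13 tested cell fusion genes, 6 were higher and 4 lower than in C1q-high macrophages, and 7 were higher and 0 lower than in Ly6c2 cells. The tetraspanins moved in opposite directions against C1q-high macrophages, where *Cd9* rose by 1.53 and *Cd81* fell by 1.60. *Cd9* was at 280.3, 405, 576 and 402 CPM against 138, 159, 189 and 86.1 in C1q-high macrophages, without overlap. *Atp6v0d2* rose by 1.52 and 3.54, at 0, 36.4, 51.2 and 29.0 CPM. Its call against C1q-high macrophages was lost without the *Ctsk*-high cells (1.25) and without Control 2, hucMSC-Exo 1 or hucMSC-Exo 2 (1.79, 1.25 and 1.67), and that against Ly6c2 cells without Control 2 (2.75, edgeR adjusted p = 0.0606). *Dcstamp* had 1.28 and 2.32 and passed neither test (edgeR adjusted p = 0.196 and 0.0578).

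The V-ATPase, which acidifies lysosomes as well as the resorption space, had 17 tested subunits. Against C1q-high macrophages 6 were higher and 1 lower (median log2 fold change 0.29), and against Ly6c2 cells 9 were higher and 0 lower (0.54). *Tcirg1*, the membrane subunit of the osteoclast pump, rose by 0.65 and 0.95, at 134, 220, 234 and 160.0 CPM. *Atp6v0a1*, another form of the same subunit, fell by 1.21 against C1q-high macrophages, a call lost without Control 2 or hucMSC-Exo 2 (-1.35 and -1.09). Of 30 lysosomal hydrolases and membrane proteins, 4 were higher and 2 lower than in C1q-high macrophages, and 19 were higher and 0 lower than in Ly6c2 cells, among them the cathepsins *Ctsb* (1.37), *Ctsd* (1.42) and *Ctsl* (1.37) and the tetraspanin *Cd63* (2.78).

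Oxidative stress genes regulated by the transcription factor Nrf2 were compared next. Of 15 tested, 10 were higher and 0 lower, with a median log2 fold change of 1.19, and against Ly6c2 cells 7 were higher and 0 lower (0.58). *Slc7a11*, the cystine importer for glutathione synthesis, rose by 2.10, and *Gclc* and *Gclm*, the subunits of the enzyme that makes its precursor, rose by 1.88 and 1.48. *Gsr*, *Srxn1*, *Txnrd1*, *Prdx1*, *Txn1*, *Sqstm1* and *Sod2* rose by 1.06 to 1.80. *Hmox1*, which is also an Nrf2 target, is counted with heme handling below.

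*Prdx1*, a peroxidase, was at 1036, 3845, 5346 and 3123 CPM in 7-gene macrophages. C1q-high macrophages held 698, 1401, 1834 and 705 CPM and Ly6c2 cells 765, 1721, 4520 and 1142. It was highest in 7-gene macrophages in every library, with the smallest margin over Ly6c2 cells in hucMSC-Exo 1. *Slc7a11* was at 626, 1091, 1446 and 1211 CPM against 150.4, 284, 537 and 145 in C1q-high macrophages, without overlap, and at 425, 827, 1159 and 549.5 in Ly6c2 cells (log2 fold change 0.58, edgeR adjusted p = 0.0849).

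Nrf2 binds the antioxidant response element. Its core was searched here as TGACNNNGC on both strands, in promoters of 300 bases (250 before and 50 after the start of a RefSeq transcript). The letters occurred in 12.4% of 32851 promoters and, with any of its promoters counted, in 14.0% of 27025 genes. Of the 17 Nrf2 list genes 15 had a promoter in the table, and 8 of them (53.3%) held the core. Of the 10 genes called higher than in C1q-high macrophages 8 had a promoter there and 4 held it, namely *Gclm*, *Txnrd1*, *Srxn1* and *Prdx1*. The Nrf2 list itself was made from genes known as its targets. A match is a description of the letters, not of binding. The windows around the matches before the gene start are shown because these genes rose together, with the match in capitals as read on the gene's strand. All 3 matches lie on the opposite strand of their gene, and the windows lie on the plus strand of GRCm38.p6. Those of *Gclm* (chr3:122245398-122245456) and *Prdx1* (chr4:116685441-116685499) lie before the gene, and that of *Txnrd1* (chr10:82859089-82859147) before a start inside the gene, in an intron of its longest transcript.
Gclm: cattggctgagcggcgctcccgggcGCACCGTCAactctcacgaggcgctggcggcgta
Txnrd1: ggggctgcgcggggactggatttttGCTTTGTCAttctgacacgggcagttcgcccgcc
Prdx1: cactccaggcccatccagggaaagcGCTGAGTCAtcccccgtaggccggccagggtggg
Each of the 3 genes had a log2 fold change of 1.48 against C1q-high macrophages (edgeR adjusted p = 0.00111 for *Gclm*, 2.72e-05 for *Txnrd1* and 0.000201 for *Prdx1*).

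Of 16 tested genes of heme and iron handling, 4 were higher and 1 lower than in C1q-high macrophages, and 5 were higher and 0 lower than in Ly6c2 cells. *Hmox1* was higher than in C1q-high macrophages by 1.07 (edgeR adjusted p = 0.0364), although in Control 1 it was lower, at 418 against 524 CPM. Its call was lost under 5 alternatives, among them leaving out Control 2, hucMSC-Exo 1 or hucMSC-Exo 2 (1.02, 0.97 and 0.74). Against Ly6c2 cells it had 0.66 (adjusted p = 0.178). *Spic* was higher by 1.27 (adjusted p = 0.0320) and 1.99 (0.00329), and the first of these calls was lost under 6 alternatives, among them leaving out Control 2 or hucMSC-Exo 1 (1.23 and 0.88). The ferritin genes *Fth1* and *Ftl1*, which store iron, rose by 0.93 and 0.40 against C1q-high macrophages. *Cd163*, the receptor for haptoglobin with hemoglobin, fell by 2.47, at 36.6, 1.21, 0 and 29.0 CPM against 35.8, 50.6, 46.7 and 77.9, a call lost without Control 2 or hucMSC-Exo 1 (-1.67 and -2.02).

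Matrix genes separated 7-gene from C1q-high macrophages. Of 17 tested, 12 were higher and 0 lower, with a median log2 fold change of 1.11, and against Ly6c2 cells 5 were higher and 2 lower (0.25). The macrophage elastase *Mmp12* rose by 2.32 and 1.30, at 126, 381, 294 and 509 CPM against 26.3, 68.6, 119 and 77.9 in C1q-high macrophages, and its call against Ly6c2 cells was lost without Control 2 or hucMSC-Exo 2 (1.03 and 0.93). Fibronectin (*Fn1*) rose by 1.67 and thrombospondin 1 (*Thbs1*) by 1.21 against C1q-high macrophages, and they had 0.25 and -0.23 against Ly6c2 cells and did not pass. *Thbs1* was at 2047, 6482, 6422 and 6525 CPM. Glycolysis and hypoxia genes showed the same split, with 12 of 19 higher and 0 lower than in C1q-high macrophages (median 0.72) and 2 higher and 1 lower than in Ly6c2 cells (-0.14). *Pgk1*, a glycolytic kinase, rose by 1.14 against C1q-high macrophages and *Hif1a*, the hypoxia factor, by 0.85.

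Resident macrophage genes were between the other populations. Of 12 tested, 1 was higher and 9 lower than in C1q-high macrophages (median log2 fold change -1.69), and 7 were higher and 1 lower than in Ly6c2 cells (2.25). The folate receptor *Folr2* fell by 2.22 against C1q-high macrophages, at 81.2, 27.5, 11.2 and 9.27 CPM against 112, 100.2, 107 and 150.3. *Gas6*, which bridges dying cells to phagocyte receptors, fell by 1.85 and was higher than in Ly6c2 cells by 3.59. Monocyte genes were the reverse, with 6 of 11 higher and 1 lower than in C1q-high macrophages (1.21) and 0 higher and 6 lower than in Ly6c2 cells (-1.41). *Vcan*, versican, was at 65.0, 74.0, 101 and 76.5 CPM, above C1q-high macrophages by 2.93 and below Ly6c2 cells by 1.78. C1q and *Ly6c2* chose the 2 comparison classes, so this order is partly given by their choice.

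Inflammatory genes split into chemokines that rose and chemokines that fell. Of 18 tested, 6 were higher and 9 lower than in C1q-high macrophages. The neutrophil attractants *Cxcl3* and *Cxcl2* rose by 2.76 and 1.55, with *Cxcl1* (2.40), the prostaglandin synthase *Ptgs2* (1.44), *Il1b* (0.77) and the inflammasome sensor *Nlrp3* (0.83). The monocyte attractants *Ccl2*, *Ccl7*, *Ccl8* and *Ccl12* had log2 fold changes of -2.99, -3.35, -4.05 and -2.98. *Ccl8* was at 2084, 359.9, 10.2 and 417 CPM against 5534, 4128, 4855 and 9098 in C1q-high macrophages, without overlap. Against Ly6c2 cells 4 were higher and 2 lower, among them *Cxcl16*, a ligand of T cells, which rose by 1.68.

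Growth factors differed by the comparison. Of 12 tested, 1 was higher and 2 were lower than in C1q-high macrophages, and 6 were higher and 0 lower than in Ly6c2 cells (median 1.60). *Vegfa*, which drives vessel growth, rose by 0.76 and 0.82, at 540.3, 714, 376 and 574 CPM. *Igf1*, insulin-like growth factor 1, fell by 2.86 against C1q-high macrophages, at 20.3, 87.8, 21.4 and 59.1 CPM against 134, 435, 341 and 463. Of 17 lipid handling genes 5 were higher and 3 lower than in C1q-high macrophages, and 9 were higher and 0 lower than in Ly6c2 cells, with *Trem2*, the lipid receptor, at -0.19 (edgeR adjusted p = 0.628) and 2.16. *Trem2* was at 479, 304, 278 and 217 CPM.

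**Figure D4:**
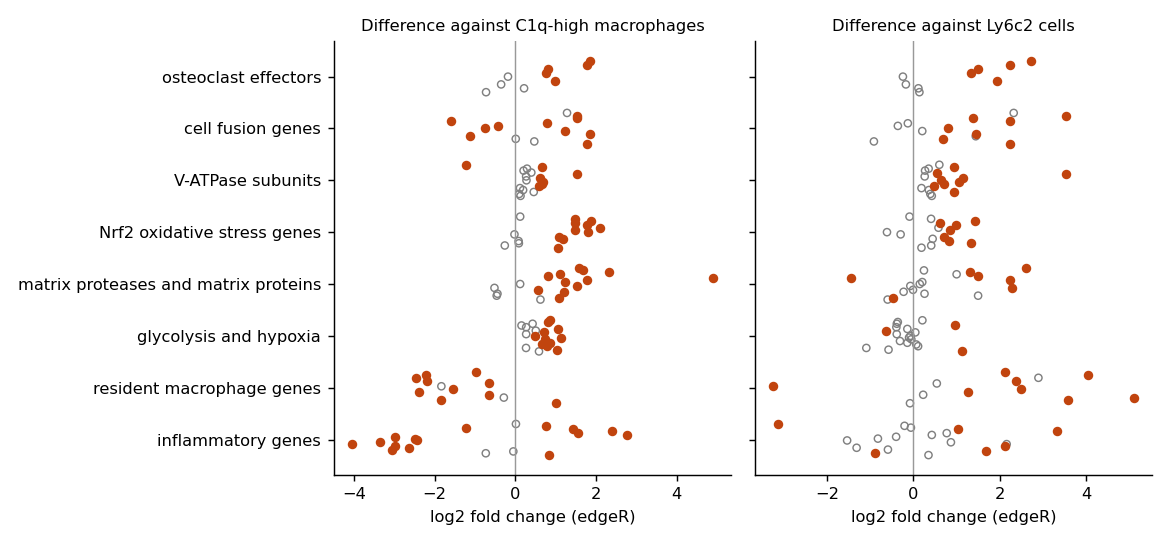
log2 fold change (edgeR) of each tested gene of 8 lists in 7-gene macrophages against C1q-high macrophages (left) and Ly6c2 cells (right). Each circle is 1 gene, filled where the adjusted p is under 0.05, and heights within a list only spread the circles. Nrf2 and matrix genes called against C1q-high macrophages all lie right of 0, and resident macrophage genes lie mostly left of 0 on the left and right of 0 on the right.

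Markers of other cell types were summed in the same way. The 8 keratinocyte markers summed to 449 to 1133 CPM in 7-gene macrophages and 476 to 977 in C1q-high macrophages, the 8 fibroblast markers to 177 to 409 and 181 to 406, and the 8 T cell markers to 12.1 to 24.4 and 15.5 to 51.9. Against C1q-high macrophages 0 of 8 tested keratinocyte and 0 of 6 tested fibroblast markers were called. The 8 neutrophil markers summed to 134 to 241 CPM and 69.2 to 510. Of 7 tested, 2 were higher than in C1q-high macrophages and 6 lower than in Ly6c2 cells, and of 4 tested dendritic cell markers 1 was higher and 3 were lower likewise. Melanocyte markers summed to 670, 8.49, 199 and 8.12 CPM against 2.73 to 23.9, and the melanin enzyme *Dct* was called higher against both populations. Of its UMIs, 1 cell of Control 1 held 98 of 101 and 1 cell of hucMSC-Exo 1 held 111 of 124, and without these 2 cells *Dct* had 0.21 (edgeR adjusted p = 0.857) and 0.07 (0.965).

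The number of rule genes in a cell gave a finer view. Summed over gated cells of all libraries, *Hmox1* was at 587 CPM in cells with none of the 7 genes, 1047 with 1, 2088 with 2, 2763 with 3, 3971 with 4 and 4279 with 5 to 7. *Prdx1* went from 420.3 to 5659 CPM and *Spic* from 12.1 to 213 over the same classes. The largest fold step of *Spic* was between 2 genes (46.6 CPM) and 3 (113). *Hmox1* followed this course in Control 2 (672 to 3952 CPM) and hucMSC-Exo 2 (427 to 4050.4), but in Control 1 it stayed between 266 and 446, where the last class holds 4 cells. In the same pooled sums *Cd74* fell from 9420 to 5572 CPM, while *C1qa* stayed between 1014 and 1338. Single libraries differed from this. *C1qa* was at 752 CPM with none and 1274 with 5 to 7 in Control 2, and at 463 with 2 and 1565 with 5 to 7 in hucMSC-Exo 1. In Control 1 it was at 1869 with none and 1385 with 4. *Cd74* in hucMSC-Exo 2 was at 6046 with none, 9338 with 1 and 6142 with 5 to 7. *Mrc1* was at 366 to 657 CPM. Cells with more rule genes also held more UMIs, and the part of depth in these values was not tested.

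**Figure D5:**
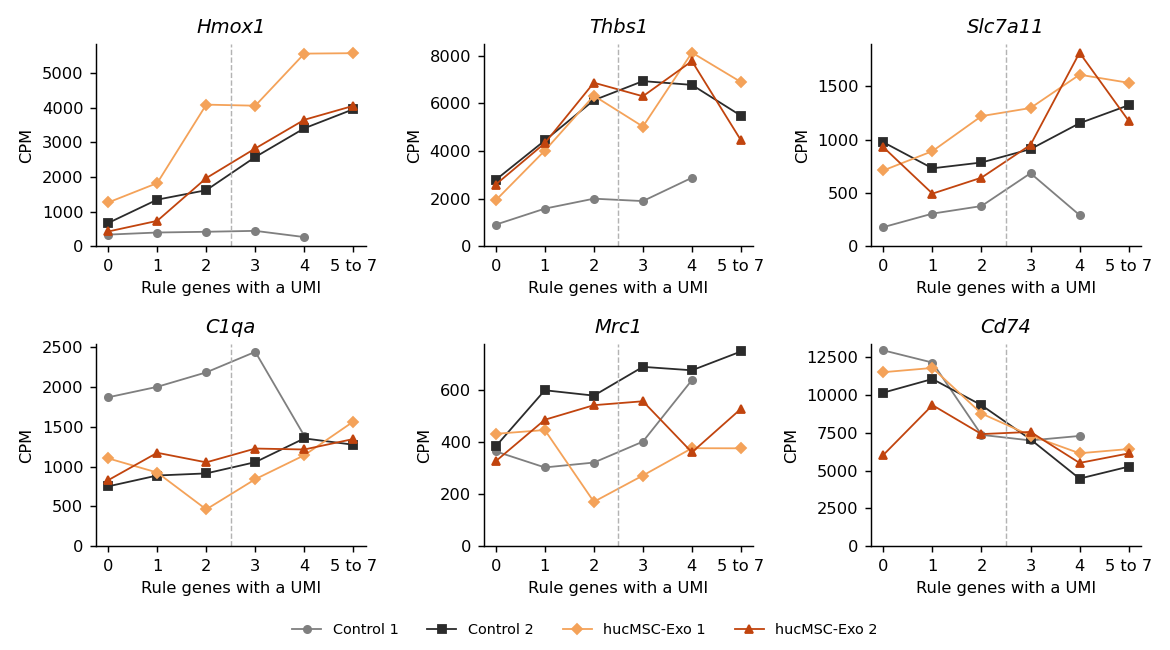
Level in CPM of 6 genes (vertical axes) in gated cells by the number of the 7 rule genes with a UMI (horizontal axes), 1 line per library. Cells right of the dashed line are the 7-gene macrophages, and points with under 4 cells are not drawn. *Hmox1* was higher on the right than at 0 and 1 rule genes in 3 libraries and stayed at or below 446 CPM in Control 1. In hucMSC-Exo 1 it was at 4085 CPM with 2 rule genes and 4054 with 3. *Cd74* was lower on the right than at 1 rule gene in every library. In hucMSC-Exo 2 *Cd74* was at 6046 CPM with none, 7565 with 3, 5514 with 4 and 6142 with 5 to 7.

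The 7-gene macrophages were also split by *Spic*. Of the 544 cells, 170 held *Spic*, 167 *Arg1* and 45 both. To compare cells at equal depth, each was thinned to 2000 UMIs and the cells with a *Spic* UMI left (44 in Control 2, 27 in hucMSC-Exo 1 and 9 in hucMSC-Exo 2) were set against those without (226, 107 and 102). Before thinning, 93, 50 and 25 cells of these libraries held *Spic*, so the class without it also takes in cells whose *Spic* UMIs were lost in thinning. Control 1 had 1 cell with *Spic* left and was not used. Of 2068 genes tested, 4 were higher (0.193%) and 18 lower (0.87%) in the cells with *Spic* at an adjusted p under 0.05 (edgeR). On the log2 scale *Cxcl16* (0.77), *Pf4* (0.64), *Ms4a7* (0.68) and *Cxcl1* (0.95) were higher, though *Cxcl1* was not higher in hucMSC-Exo 2.

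The lower genes included monocyte genes. *Plac8* fell by 3.19, at 90.9, 0 and 0 CPM against 451, 224 and 1025 in the 3 libraries used. *Chil3* fell by 1.39, *Ifitm3* by 0.98 and *Il1b* by 0.72. *Spp1* fell by 1.10, at 625, 1037 and 222 CPM against 1710.2, 1164 and 1446. The elastase *Mmp12* fell by 1.48. *Ctsk* fell by 3.41, but in hucMSC-Exo 2 it was higher in the cells with *Spic* (111 against 68.6 CPM), and most of its UMIs lie in the 6 *Ctsk*-high cells. Thinned to 4000 UMIs 46 genes were called and without thinning 74, but DESeq2 called 0 and leaving out 1 library left 0 to 2. The 22 calls thus rest on all 3 libraries and on the test used.

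The comparison between hucMSC-Exosomes and control within the 7-gene macrophages called 0 of 6540 genes (0%) with edgeR, and 98 (1.5%) had an unadjusted p under 0.05. The lowest p-values belonged to the monocyte attractants *Ccl2* and *Ccl7*. *Ccl2* was at 244 and 150.0 CPM in the control libraries and 21.4 and 35.9 in the hucMSC-Exo libraries, which gave -2.70 ± 0.40 (standard error) on the log2 scale and an adjusted p = 0.381 in edgeR. *Ccl7* was at 118 and 134 against 29.8 and 29.0, and fell by 2.05 (adjusted p = 0.381). The groups did not overlap for either gene, but with 2 libraries against 2 the exact permutation test gives such an order p = 0.333 at best. The share of all genes without overlap is not given. DESeq2 called *Ccl2* alone. With at least 4 rule genes required, Control 1 had 4 cells and was left out, so that setting compared 1 control library with 2. Leaving out 1 library gave 9 (without Control 1) to 45 calls (without Control 2), where the lone library of a group is assumed to vary like those of the other.

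*Ccl8* was at 2084 and 359.9 CPM in the controls and 10.2 and 417 in the hucMSC-Exo libraries, so the groups overlapped (log2 fold change -2.52, standard error 1.26, edgeR adjusted p = 1.00). *Cxcl3* was at 97.5 and 1739 against 2449 and 1599.8, and *Arg1* at 77.2 and 385 against 122 and 656. *Hmox1* had 1.23 (standard error 0.72) and *Spic* 0.86 (0.70), both with Control 1 as the lowest library. For these genes the spread between the control libraries was larger than the difference between the groups.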

How the data were processed

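Per the labels and the study's methods, the authors made the deposited counts, raw UMI counts of each cell's genes, with Cell Ranger 6.1.2 on mm10, without normalization. All 4 matrices were used. The study's limits of 200 to 3000 genes and a mitochondrial share of at most 10% chose the kept cells. Group and replicate came from the titles. The members, gene lists and alternatives were chosen with earlier results of these data known. UMIs were summed per library and population, and CPM is UMIs per 1e+06 UMIs of that sum. Sums were tested with edgeR 4.0.16 in R 4.3.3 (TMM, filterByExpr, quasi-likelihood, Benjamini-Hochberg adjustment at 0.05). Populations shared 1 fit with the library as a block, and the groups were compared without it. DESeq2 1.42.0 was an alternative. Shares used exact permutation tests. Scrublet ran in scanpy 1.11.5, and marked cells were kept. The tests were tried on simulated data. Named genes included the 15 with the largest smaller fold among genes called higher against both populations and in all 4 libraries. The 10 likewise lower, up to 4 called genes per list and, between the groups, genes the study names were added. Further list genes, called or not, and *Ccl7* between the groups were named outside these rules. *Dct*-high, *Ctsk*-high and *Siglech* settings were added after the data were seen. Promoters and gene positions are RefSeq's on GRCm38.p6, the build also called mm10. Genes such as *Calcr* and *Marco* were not analysed here. 1 of the 15 is not reported here. Libraries held 1098 to 2422 cells.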

Additional observations from a re-analysis of the deposited data

Results flagged for a closer look

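Cells that met the 7-gene rule but had over 3000 genes entered tests only in the setting without the upper gene limit. Among them, the share with at least 20 *Ctsk* UMIs was 63.6% in hucMSC-Exo 1 (28 of 44 cells) and 40.0% in hucMSC-Exo 2 (6 of 15). Both lay above the control libraries, which held 21.2% (7 of 33) and 39.5% (60 of 152). hucMSC-Exo 2 and Control 2 were nearly equal, and the difference between the groups was not tested.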

How the results depend on the processing

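The difference in the share of kept cells reversed to 4.69 percentage points without Control 2 and to 1.51 without hucMSC-Exo 2 (range over left-out libraries -5.54 to 4.69). That among gated cells was -1.75 without the upper gene limit and -8.61 to 14.6 over left-out libraries. Between the groups, where 0 genes were called, DESeq2 and the rule applied after thinning to 2000 UMIs called 1 each, at least 4 of 7 rule genes 3, no filter on low counts 30 and left-out libraries 9 to 45. Against C1q-high macrophages, omitting the library block called 169 genes higher and 267 lower, no upper gene limit 919 lower, and left-out libraries 222 to 557 higher and 246 to 575 lower. Against Ly6c2 cells the counts were 350 and 301 without the block, 1083 and 1105 without the gene limit, and 231 to 602 higher and 193 to 553 lower over left-out libraries. The split by *Spic* gave 0 with DESeq2, 74 without thinning, 46 at 4000 UMIs and 0 to 2 with a library left out. For single genes in the population comparisons, 2204 of 2471 values under alternatives kept their direction and side of the threshold, 263 lost the call and 4 reversed. In the *Spic* split 77 of 176 kept both, 98 lost the call and 1 reversed. *Dct* reversed against C1q-high macrophages to -1.35 with at least 4 rule genes and to -0.30 with the thinned rule, *Ifitm6* to -0.70 with the thinned rule, *Cd209d* against Ly6c2 cells to 0.14 without *Siglech* cells, and *Hspa1b* in the *Spic* split to 0.12 without thinning. The cause of these changes was not tested. With the replicate number as a block, 0 genes were called between the groups and 62 had an unadjusted p under 0.05. Same-numbered libraries deviated together at r = -0.0353. With 2 libraries per group the deviations mirror each other, so this value cannot decide whether the numbers pair mice. The labels do not say that they do, and the numbers are not taken as pairs. Control 1, with 27 cells, limits every comparison between the groups.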

Other observations

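Scavenger and efferocytosis receptors were lower in 7-gene than in C1q-high macrophages for 4 of 14 tested genes and higher for 1. *Mertk*, a receptor for dying cells, fell by 1.42 on the log2 scale and *Stab1*, a scavenger receptor of resident macrophages, by 1.28 (edgeR adjusted p = 0.00623 and 0.00111). Both were higher than in Ly6c2 cells, by 3.19 and 1.32. The calls of *Mertk* were lost without Control 2 (-1.25) and without hucMSC-Exo 2 (2.09). Genes of MHC class II presentation were lower than in C1q-high macrophages for 6 of 12 and higher for 1, with *Ciita*, their master regulator, at -1.67 (-1.34 and no call without Control 2) and *H2-DMa* at -0.76, and against Ly6c2 cells 0 were higher and 2 lower. Of 5 tested cell cycle genes 1, *Mcm3*, was lower than in C1q-high macrophages, a call lost without any 1 of the 4 libraries (-0.97 to -1.50), and 0 were called against Ly6c2 cells. Among 14 alternative activation genes, 2 were higher (*Arg1* and the interleukin 1 antagonist *Il1rn*) and 5 lower than in C1q-high macrophages. *Il1rn* was at 443, 1458, 1003 and 949 CPM by library, in the order Control 1 and 2, then hucMSC-Exo 1 and 2.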
